A study of Mus musculus with 6 samples.

Results

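Integrins are cell-surface receptors made of an alpha and a beta subunit. They bind matrix proteins outside the cell and, through talin, kindlin and other adaptors, the actin cytoskeleton inside it. In stellate cells and fibroblasts they anchor the cell to collagen, laminin and fibronectin, and those that contain the Itgav product can release active TGF-beta from its latent form. The integrin subunit genes described here were taken by name, with earlier results of these data known and no measured value in the rule: Itgb1, Itgav, Itga1, Itga3, Itga5, Itga6, Itga8, Itga11, Itgb3 and Itgb5. Of these 10 genes, 9 had a row among the 13341 genes of the table, 6 alpha and 3 beta subunits, and Itga8 was not analysed here.

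The cells were hepatic stellate cells of the mouse, grown in culture. In the liver these cells lie along the sinusoids and store vitamin A. Cells with the genotype label Nbr1 knock-out (3 libraries) were set against cells labelled wild type (3 libraries). Nbr1 encodes an autophagy cargo receptor. All cells were untreated and grew for 4 days in medium with 10% serum, and the series title places them in a study of NBR1, p62 and the STING pathway in liver cancer. The labels do not give the age or sex of the animals, the strain, the allele or the cell type in which Nbr1 was deleted, and although the replicates are called biological, nothing says that they came from separate animals or cultures. The p-values then measure only the spread between these libraries, which may be technical.

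Messenger RNA was read at its 3′ end, and a value is the authors' normalized read count. Recovered totals were 1648800 to 2276529 reads in the knock-out libraries and 1508518 to 2383879 in the wild-type libraries. Wild-type library 1 stood apart. It correlated at r = 0.856 to 0.857 with the other wild-type libraries, but at 0.875 and 0.888 with knock-out libraries 1 and 3. By clustering of these libraries' own deviations from the group means, 1 set held knock-out libraries 1 and 3 together with wild-type library 1, and the other held the rest. Nbr1 itself had 189.2 ± 14.1 normalized counts in the knock-out label and 256.9 ± 46.1 in the wild-type label (SD, n = 3 each; limma adjusted p = 0.22). Reads from the 3′ end do not check a deletion elsewhere in the gene. Sqstm1, which encodes p62, had 773.7 ± 113.7 in the knock-out label against 15.9 ± 7.10 in the wild-type label (limma adjusted p = 0.000337). That is 48.7-fold, with only 13 to 18 reads in each wild-type library. The genotype labels name Nbr1 only and give no reason for this difference, so what the wild-type label stands for is uncertain. Every direction below rests on the labels as given.

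Of 11 stellate cell markers, 5 had a row, and they summed to 3325 to 4750 normalized counts in the knock-out libraries and 2191 to 3216 in the wild-type libraries, with Pdgfrb, Hand2 and Lhx2 higher in the knock-out label. Des, Lrat, Reln, Rgs5, Ngfr and Hgf were not analysed here. Mesothelial markers (6 of 7 with a row) summed to 1134 to 1317 in the knock-out libraries and 1585 to 1757 in the wild-type libraries. Gpm6a made up most of each sum (813.0 in the knock-out label, 1051 in the wild-type label) and did not pass. Upk3b was lower in the knock-out label (68.0 against 181.5 in the wild-type label, limma adjusted p = 0.0112). Msln went the other way without passing, at 22.8 in the knock-out label and 14.2 in the wild-type label. Krt8, not tested, was at 0 in knock-out libraries 1 and 3. Smooth muscle and pericyte markers (6 of 7) summed to 113 to 131 in the knock-out libraries and 6.36 to 12.0 in the wild-type libraries, with Lmod1 at 0 in every wild-type library. Cholangiocyte and epithelial markers (5 of 6) summed to 602 to 667 in the knock-out libraries and 142 to 163 in the wild-type libraries. Sox9 (478.6 in the knock-out label, 15.3 in the wild-type label) and Cdh1 (83.5 in the knock-out label, 6.03 in the wild-type label) made up most of that difference. Spp1 was lower in the knock-out label, and Krt19 had 33.7 in the knock-out label and 49.4 in the wild-type label without passing. Portal fibroblast markers (5 of 6) summed to 833 to 890 in the knock-out libraries and 593 to 889 in the wild-type libraries. Fbln2 made up most of each sum and did not pass. Thy1 (31.8 in the knock-out label, 2.80 in the wild-type label) and Eln (60.9 in the knock-out label, 14.5 in the wild-type label) were higher in the knock-out label. Cd34 went the other way without passing, at 130.2 in the knock-out label and 228.2 in the wild-type label. Hepatocyte markers (6 of 8) summed to 18.9 to 53.4 in the knock-out libraries and 46.7 to 56.3 in the wild-type libraries. Macrophage and leukocyte markers (2 of 9) summed to 6.88 to 14.2 in the knock-out libraries and 6.36 to 14.7 in the wild-type libraries. The endothelial marker Kdr (1 of 7) had 6.02 to 8.31 in the knock-out libraries and 3.36 to 5.45 in the wild-type libraries. In bulk RNA, fewer cells of a type and less RNA per cell cannot be told apart. The stellate, mesothelial, smooth muscle and epithelial marker sums did not overlap between the labels, nor did Kdr, at 3 to 9 reads per library. The part of these markers in the differences below was not tested.

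The collagen-binding subunit gene Itga1 and the vitronectin-receptor subunit gene Itgb5 rose in the knock-out label, and 0 of the tested integrin genes fell. Itga1 was 3.66-fold and Itgb5 2.24-fold higher by group means. In the same fit 6.92% of the 10540 tested genes changed, 4.67% higher and 2.25% lower (limma on log2(value + 1), adjusted p under 0.05). A gene was tested where it had at least 10 normalized counts in at least 3 libraries. By that rule 6 of the 9 genes were tested, and Itga5, Itga11 and Itgb3 were below it. At an unadjusted p under 0.05, reached by 22.6% of tested genes, 4 of the 6 genes were higher and 1, Itgav, was lower. On the recovered reads edgeR called 2 higher and 0 lower, where it called 7.27% of genes in either direction and 2.27% lower. DESeq2 called 2 higher and 1, Itgav, lower, where it called 5.74% of genes higher and 3.28% lower. Without wild-type library 1, Itga1 and Itgb5 rose and Itgav fell, where 12.1% of genes rose and 9.02% fell. With any other library left out, 0 of the 6 genes passed in limma. In those fits 1.39% of genes rose without knock-out library 1, 2.22% without knock-out library 2 and 1.58% without knock-out library 3. The shares were 2.41% without wild-type library 2 and 2.38% without wild-type library 3.

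**Figure D1:**
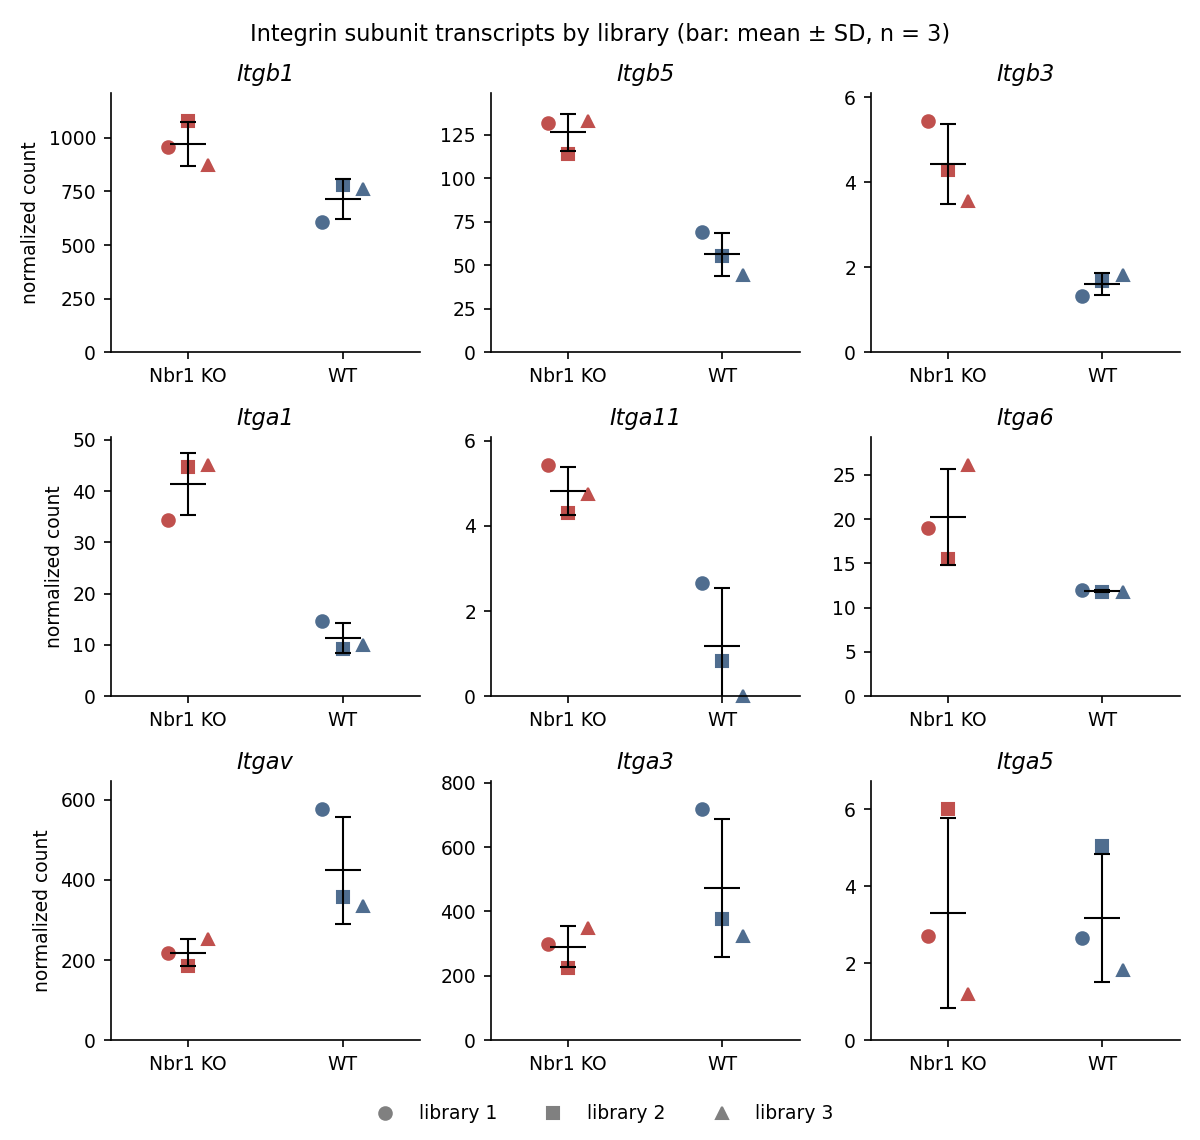
Normalized counts of 9 integrin subunit genes in each library, Nbr1 knock-out (red) left of wild type (blue), with the mean ± SD (n = 3) and an axis from 0 in each panel. Itga1 and Itgb5 lie higher in all knock-out libraries, Itgav lies lower in all of them, and wild-type library 1 is the highest library for Itgav and Itga3.

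The bases before the start of 4 of these genes are shown because they form the receptor pairs described here: Itga1 with Itgb1, and Itgb5 with Itgav. The sequences are the 250 bases before the annotated start, 5′ to 3′ on the gene's strand, from RefSeq on GRCm38.p6, in which 7 of the 9 genes had an entry. Capitals mark matches, on either strand, to a GC box (GGGCGG, which reads CCGCCC where it lies on the other strand) or to the TEAD motif GGAATG. The AP-1 motif TGANTCA, the SMAD palindrome GTCTAGAC and the TATA box TATAAA were also searched, so 5 motifs in all, and none of the 4 sequences held a match to these. No match says only that these letters are not in this window.
Itga1, chr13:115101965-115102214, minus strand: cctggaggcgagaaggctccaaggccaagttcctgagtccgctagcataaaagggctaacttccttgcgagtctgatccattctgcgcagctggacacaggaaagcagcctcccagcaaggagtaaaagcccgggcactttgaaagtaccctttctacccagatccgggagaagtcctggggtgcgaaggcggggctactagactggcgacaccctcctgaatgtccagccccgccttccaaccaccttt
Itgb1, chr8:128685404-128685653, plus strand: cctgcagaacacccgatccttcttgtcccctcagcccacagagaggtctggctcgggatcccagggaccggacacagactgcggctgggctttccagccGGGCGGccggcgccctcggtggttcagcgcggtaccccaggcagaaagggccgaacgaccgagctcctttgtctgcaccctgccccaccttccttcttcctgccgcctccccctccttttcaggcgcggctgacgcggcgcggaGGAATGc
Itgb5, chr16:33829415-33829664, plus strand: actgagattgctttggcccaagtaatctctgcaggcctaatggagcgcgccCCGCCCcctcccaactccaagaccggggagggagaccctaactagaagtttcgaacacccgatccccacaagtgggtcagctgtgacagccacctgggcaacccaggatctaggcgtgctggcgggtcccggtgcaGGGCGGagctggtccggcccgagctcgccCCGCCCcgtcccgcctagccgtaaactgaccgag
Itgav, chr2:83724147-83724396, plus strand: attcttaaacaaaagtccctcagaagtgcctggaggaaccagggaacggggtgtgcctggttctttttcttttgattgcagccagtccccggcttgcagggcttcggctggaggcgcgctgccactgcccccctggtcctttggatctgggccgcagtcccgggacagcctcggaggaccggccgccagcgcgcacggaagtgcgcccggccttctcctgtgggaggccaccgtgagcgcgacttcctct
The Itgb5 window held 3 GC box matches, at -199, -63 and -34 counted from the start, and the Itgb1 window held 1 at -151. Of all 32851 promoter windows of this length, 32.7% held at least 1 GC box match. Itgb1 also held the TEAD letters at -7, as did 12.6% of windows. The windows of Itga1 and Itgav, of which Itga1 rose and Itgav was lower without passing, held a match to none of the 5 motifs. The GC content was 57.6% for Itga1, 68.0% for Itgb1, 65.2% for Itgb5 and 64.4% for Itgav.

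The Itga1 product pairs with the Itgb1 product in a receptor for collagens, above all basement membrane collagen. Itga1 had 34.4, 44.7 and 45.1 normalized counts in knock-out libraries 1 to 3 and 14.7, 9.24 and 9.99 in wild-type libraries 1 to 3. Every knock-out library thus lay above every wild-type library. These values rest on 38 to 52 reads per knock-out library and 11 reads in each wild-type library. The mean was 41.4 ± 6.06 in the knock-out label against 11.3 ± 2.95 in the wild-type label, a log2 change of 1.80 (SE 0.27, 95% interval 1.15 to 2.45, limma adjusted p = 0.0122). Itga1 passed the filter through the knock-out libraries, but it also rose with no filter. Leaving out any 1 of knock-out libraries 1 to 3 or wild-type libraries 2 and 3 ended the call (adjusted p between 0.0554 and 0.0731), with a log2 change of 1.68 to 1.93 there. Within the set that holds wild-type library 1 its log2 change was 1.37, and within the other set 2.11. The predicted gene Gm49395 overlaps exons of Itga1 on the same strand in GENCODE M21, so how reads there were assigned is uncertain.

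Itga11, whose product pairs with that of Itgb1 in a fibroblast receptor for fibrillar collagen, was barely detected. It had 5.43, 4.30 and 4.75 normalized counts in knock-out libraries 1 to 3 and 2.67, 0.84 and 0 in wild-type libraries 1 to 3. That is 15 reads over the knock-out group and 3 over the wild-type group, a ratio of 4.89 with an exact 95% binomial interval of 1.38 to 26.3 that covers counting error only. The groups did not overlap, but in the limma fit with no filter the log2 change of 1.62 did not pass (adjusted p = 0.143).

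Itgb1 encodes the beta subunit shared by most matrix-binding integrins, and it was abundant in every library. It had 958.6, 1076.9 and 873.3 normalized counts in knock-out libraries 1 to 3 and 608.4, 779.3 and 760.9 in wild-type libraries 1 to 3. The groups did not overlap, and the difference was small, 969.6 ± 102.2 in the knock-out label against 716.2 ± 93.8 in the wild-type label, or 1.35-fold. The log2 change of 0.44 (SE 0.15, 95% interval 0.08 to 0.80) did not pass (limma adjusted p = 0.147). It was 0.59 within the set that holds wild-type library 1 and 0.48 within the other. With a term for these sets it was 0.54 (adjusted p = 0.00348). The sets were read from the same values, so the term lowers the residual spread by construction, 14.3% of genes rose and 12.2% fell in that fit, and its p-values are too small to support a call.

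Of the receptors for vitronectin and latent TGF-beta, Itgb5 rose while its partner Itgav was lower without passing the test. Itgb5 had 132.2, 114.3 and 132.9 normalized counts in knock-out libraries 1 to 3 and 69.4, 55.4 and 44.5 in wild-type libraries 1 to 3, with no overlap. The mean was 126.5 ± 10.5 in the knock-out label against 56.4 ± 12.5 in the wild-type label, a log2 change of 1.17 (SE 0.21, 95% interval 0.67 to 1.67, limma adjusted p = 0.0216). The same omissions ended this call (adjusted p between 0.0642 and 0.131), at a log2 change of 1.01 to 1.24. The change was 0.92 within the set that holds wild-type library 1 and 1.19 within the other.

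Itgav encodes the alpha subunit that pairs with the products of Itgb1, Itgb3, Itgb5 and Itgb8. It had 218.2, 184.8 and 251.6 normalized counts in knock-out libraries 1 to 3 and 577.7, 358.6 and 335.0 in wild-type libraries 1 to 3. All knock-out libraries were below all wild-type libraries, and wild-type library 1 was far above the other wild-type libraries. The mean was 218.2 ± 33.4 in the knock-out label against 423.8 ± 133.8 in the wild-type label, a log2 change of -0.92 (SE 0.24, 95% interval -1.50 to -0.35), which did not pass (limma adjusted p = 0.0757). Without wild-type library 1 the change was smaller, -0.68, and passed (adjusted p = 0.0257). It also passed in DESeq2 on the recovered reads (adjusted p = 0.0201), but not in edgeR. Within the set that holds wild-type library 1 the log2 change was -1.30, and within the other -0.90. With the term for the sets, subject to the limit given for Itgb1, it was -1.10 (adjusted p = 0.000404). An opposite-strand predicted gene, Gm13684, overlaps exons of Itgav in GENCODE M21, and the sources used here do not say whether the counting used strand.

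The normalized counts of Itgb5 per count of Itgav were 0.61, 0.62 and 0.53 in knock-out libraries 1 to 3 and 0.12, 0.15 and 0.13 in wild-type libraries 1 to 3. This ratio was chosen after the values were seen and is given without a test. Itgb3, the other vitronectin-receptor beta subunit gene, was close to the detection limit. It had 5.43, 4.30 and 3.56 normalized counts in knock-out libraries 1 to 3 and 1.33, 1.68 and 1.82 in wild-type libraries 1 to 3. That is 14 reads over the knock-out group against 5 over the wild-type group, a ratio of 2.74 (exact 95% binomial interval 0.93 to 9.71). The groups did not overlap, as for Itga11, but in the limma fit with no filter the log2 change of 1.05 did not pass (unadjusted p = 0.0268, adjusted p = 0.165).

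The laminin receptor subunit genes did not pass the test. Itga3, whose product binds laminins together with that of Itgb1, had 298.7, 222.6 and 350.0 normalized counts in knock-out libraries 1 to 3 and 719.1, 376.2 and 322.3 in wild-type libraries 1 to 3. The groups overlapped, and wild-type library 1 alone exceeded the next library by a wide margin. The log2 change of -0.63 (SE 0.33, 95% interval -1.41 to 0.15) did not pass (limma adjusted p = 0.321), and it was -0.29 without wild-type library 1. Within the set that holds wild-type library 1 it was -1.15, and within the other -0.64. With the term for the sets, under the same limit, it was -0.90 (adjusted p = 0.00227). Itga6, whose product pairs with that of Itgb1 or Itgb4, had 19.0, 15.5 and 26.1 in knock-out libraries 1 to 3 and 12.0, 11.8 and 11.8 in wild-type libraries 1 to 3. Every knock-out library was above the wild-type libraries, yet the log2 change of 0.69 (SE 0.28, 95% interval 0.02 to 1.37) did not pass (limma adjusted p = 0.212). It was 0.84 within the set that holds wild-type library 1 and 0.37 within the other.

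Itga5, which encodes the alpha subunit of the main fibronectin receptor, had almost no reads. It stood at 2.72, 6.02 and 1.19 normalized counts in knock-out libraries 1 to 3 and 2.67, 5.04 and 1.82 in wild-type libraries 1 to 3. The 11 reads over the knock-out group and 10 over the wild-type group give a ratio of 1.08, with an exact 95% binomial interval of 0.42 to 2.82. Library 2 was the highest in each group. Fibronectin itself, Fn1, was abundant, with 2352, 2237 and 2576 normalized counts in knock-out libraries 1 to 3 and 2624, 2425 and 2467 in wild-type libraries 1 to 3 (log2 change -0.07, SE 0.11, limma adjusted p = 0.777).

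**Figure D2:**
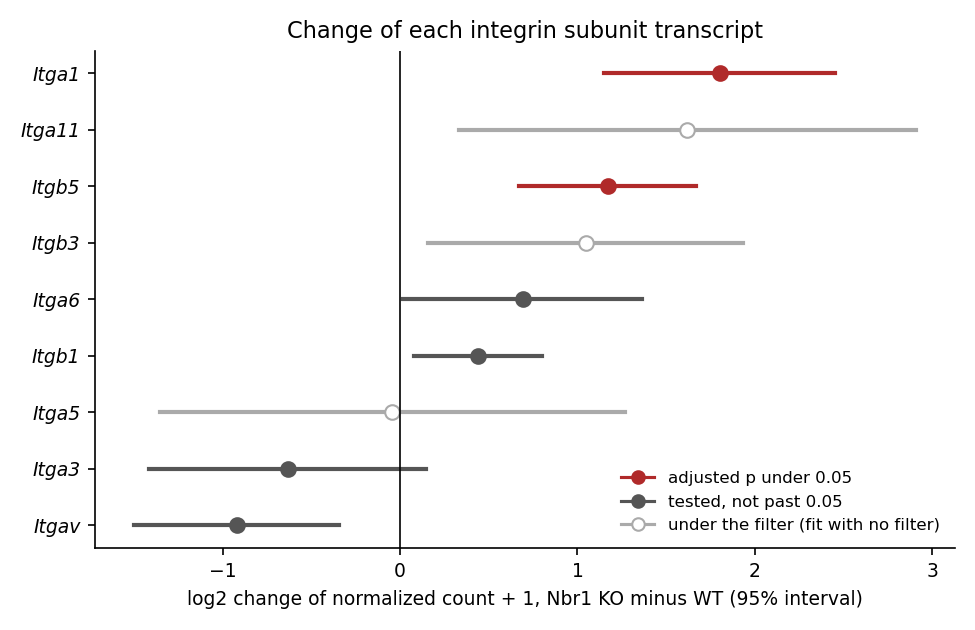
Log2 change of each integrin subunit gene on the log2(normalized count + 1) scale, Nbr1 knock-out minus wild type, with its 95% interval from limma; hollow points are genes under the filter, fitted without it. Itga1 at 1.80 and Itgb5 at 1.17 passed at an adjusted p under 0.05, and Itgav at -0.92 and Itga3 at -0.63 lie on the other side of 0 without passing.

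Among the 6 genes tested, the groups did not overlap for 5 (Itga1, Itgb5, Itgb1, Itga6 and Itgav), where 30.1% of all tested genes did not overlap, 16.5% with the knock-out label higher and 13.6% with it lower. The median log2 change of these 6 genes was 0.57, and 0.44 without Itga1, beside -0.01 over all tested genes. Itga1 is among the 6 through its knock-out values, so these counts describe the genes tested and not every integrin subunit.

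**Figure D3:**
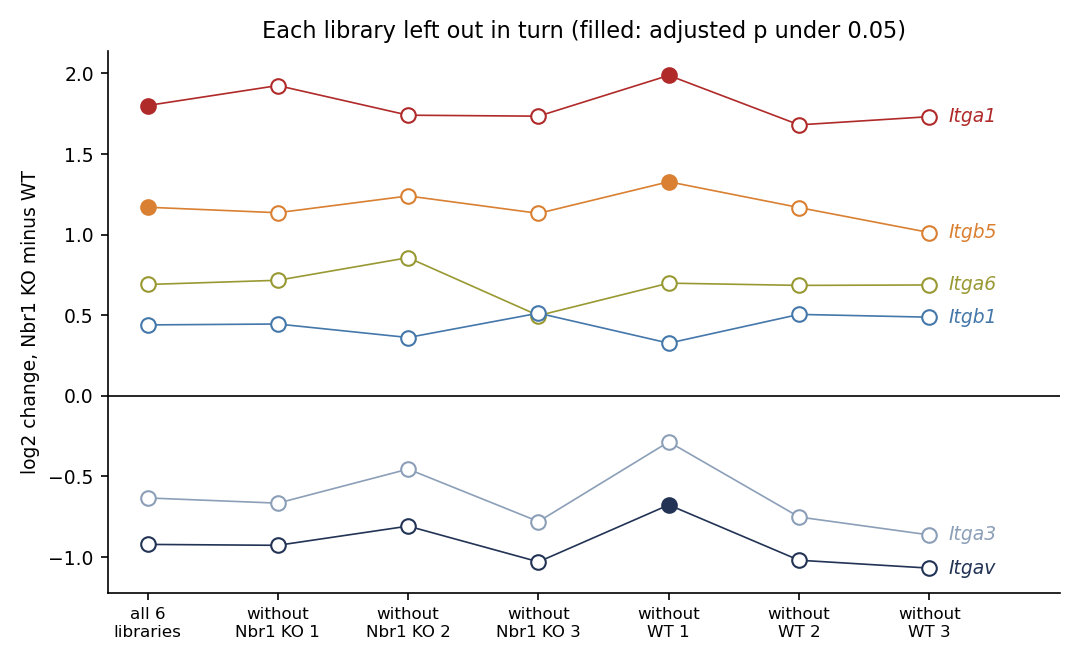
Log2 change of the 6 tested integrin genes (y axis, Nbr1 knock-out minus wild type) with all 6 libraries and with each library left out in turn (x axis), filled where the limma adjusted p was under 0.05. No direction turned, the calls of Itga1 and Itgb5 were held only with all libraries or without wild-type library 1, and Itgav passed only without that library.

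The make-up of the alpha subunit transcripts was described by each gene's share. Counts from a 3′ kit do not grow with transcript length, so the normalized counts of the 6 alpha genes were summed within each library, although how well each 3′ end is captured is not known. Itga3 and Itgav made up most of this sum in every library. Itga2b, an alpha gene outside the rule, was not in the sum. Its mean was 44.3 in the knock-out label and 29.2 in the wild-type label, so the shares are of these 6 genes only. Itga1 took 5.95, 9.35 and 6.64% of it in knock-out libraries 1 to 3 and 1.10, 1.21 and 1.47% in wild-type libraries 1 to 3. Itgav took 37.7, 38.7 and 37.1% in knock-out libraries 1 to 3 and 43.5, 47.1 and 49.2% in wild-type libraries 1 to 3. Itga3 took 49.9 ± 2.90% in the knock-out label and 50.3 ± 3.48% in the wild-type label (SD, n = 3 each). Itga6 took 3.46 ± 0.34% in the knock-out label and 1.39 ± 0.43% in the wild-type label. Itga11, at few reads, took 0.85 ± 0.13% in the knock-out label and 0.10 ± 0.10% in the wild-type label. Both shares were higher in every knock-out library, and those of Itga5 overlapped. A share depends on the sum as well as on the gene's own counts. The alpha sum itself was 578, 478 and 679 normalized counts in knock-out libraries 1 to 3 and 1329, 762 and 681 in wild-type libraries 1 to 3, so wild-type library 1 stood apart in the sum. With 3 libraries a group, an exact permutation test cannot go below p = 0.10, and the shares are given without a test.

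**Figure D4:**
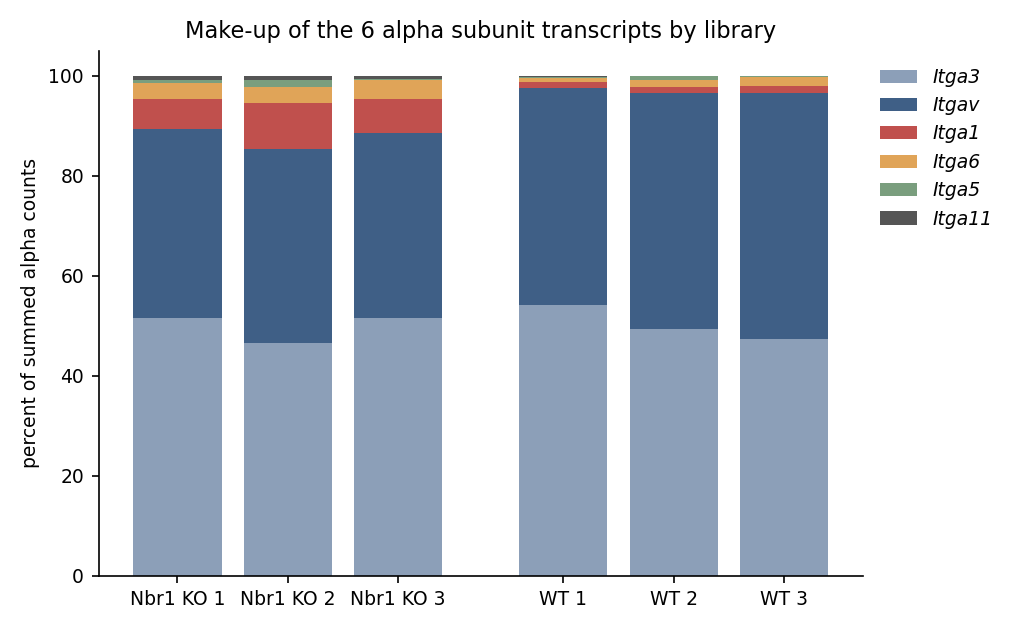
Percent of the summed normalized counts of 6 alpha subunit genes taken by each gene (stacked bars), per library, Nbr1 knock-out left of wild type. The Itga1 share is 5.95 to 9.35% in the knock-out libraries and 1.10 to 1.47% in the wild-type libraries. The smaller shares of Itga6 and Itga11 are also higher in every knock-out library, the Itgav share is lower, and the Itga3 and Itga5 shares overlap between the groups.

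The 5 tested genes whose pattern over the 6 libraries was most like that of Itga1, the integrin gene with the smallest p, were Fam217b (Pearson r = 0.998), Pigbos1 (r = 0.998), Stt3b (r = 0.998), Dnajc10 (r = 0.996) and Igf1 (r = 0.995). These coefficients describe log2(value + 1) over 6 libraries that share the difference between the labels. They were chosen for following Itga1, so their own difference between the labels is not tested here.

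Other integrin subunit genes were few, and all but Itga2b were low. Of 17 others listed, 5 had a row, 2 were tested and 0 changed in limma, edgeR or DESeq2, nor did either have an unadjusted p under 0.05. Itga2b, whose product is the platelet fibrinogen receptor subunit, had 48.0, 29.2 and 55.8 normalized counts in knock-out libraries 1 to 3 and 38.7, 25.2 and 23.6 in wild-type libraries 1 to 3 (limma adjusted p = 0.371). Itgb8, which encodes a partner of the Itgav product, had 1.81, 10.3 and 2.37 in knock-out libraries 1 to 3 and 4.00, 10.1 and 12.7 in wild-type libraries 1 to 3 (limma adjusted p = 0.474). Both sets of values overlapped. Itga7, a laminin receptor subunit gene of muscle, had 7 reads over the knock-out group and 18 over the wild-type group. Itgb4, a hemidesmosome subunit gene, had 13 reads over the knock-out group and 8 over the wild-type group. Itgb2, the leukocyte beta subunit gene, had 9 over the knock-out group and 2 over the wild-type group.

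Among the laminins, the ligands of the Itga3 and Itga6 products, 2 chains rose and 1 fell of 5 tested (7 of 11 listed had a row). Over all genes 4.67% rose and 2.25% fell. The list's median log2 change was 0.32, but Lama4 was tested through its knock-out values alone, and without it the median of the other 4 was -0.09. Lama4, the alpha chain of vessel and mesenchymal laminin, had 76.9, 67.0 and 105.6 normalized counts in knock-out libraries 1 to 3, against 1.33, 0 and 2.72 in wild-type libraries 1 to 3. That is 252 reads over the knock-out group against 4 over the wild-type group (ratio 61.6, exact 95% binomial interval 23.8 to 228.0, limma adjusted p = 0.00211). Lama5, the alpha chain typical of epithelial and mature basement membranes, moved the other way. It had 26.3, 30.9 and 22.5 in knock-out libraries 1 to 3 and 94.7, 120.1 and 102.6 in wild-type libraries 1 to 3, 3.98-fold lower in the knock-out label (limma adjusted p = 0.00304). Lamb1, a widely used beta chain, was 2.18-fold higher, at 356.7 ± 16.0 normalized counts in the knock-out label against 163.4 ± 6.19 in the wild-type label (adjusted p = 0.00397). Non-overlap was seen for 3 of the 5, against 30.1% of all tested genes. Lama4 is among these 3, and the way it passed the filter favours non-overlap. Of the other 4 chains, 1 rose and 1 fell. Without wild-type library 1 the count was 3 higher and 1 lower, where 12.1% of all genes rose and 9.02% fell.

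Of 10 collagen genes tested, 3 rose (Col1a1, Col1a2 and Col5a1) and 0 fell, with a median log2 change of 0.77. That is 30.0% of the list higher, against 4.67% of all tested genes. At an unadjusted p under 0.05, reached by 22.6% of tested genes in either direction, 7 were higher and 0 lower. Of the 7, Col6a3 was tested through its knock-out values, and without it the median of the other 9 was 0.72. Both edgeR and DESeq2 also called 0 lower. DESeq2 called 6 higher, where it called 5.74% of all genes higher, and without wild-type library 1 limma called 7 higher, where 12.1% of all genes rose. Col5a1, a minor fibrillar collagen chain, was 3.11-fold higher (367.3 ± 34.7 normalized counts in the knock-out label against 117.9 ± 11.8 in the wild-type label, limma adjusted p = 0.00192). Col1a1 was 2.55-fold higher (5539 ± 320.5 normalized counts in the knock-out label against 2169 ± 33.2 in the wild-type label, adjusted p = 0.00117). Col1a2 was 2.63-fold higher (4029 ± 1213 normalized counts in the knock-out label against 1531 ± 448 in the wild-type label, adjusted p = 0.038). It no longer passed when any 1 of knock-out libraries 1 to 3 or wild-type libraries 2 and 3 was omitted (adjusted p between 0.0789 and 0.138), nor with no variance trend (adjusted p = 0.0543), where 2 collagens rose. The basement membrane collagen genes Col4a1 and Col4a2 had log2 changes of 0.35 and 0.72 that did not pass (adjusted p = 0.135 and 0.0565).

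Of 16 ligands with an RGD motif or of matricellular type that were tested (18 listed), 4 rose (Postn, Tgfbi, Thbs2 and Fbln5) and 1 fell (Spp1), where 4.67% of all tested genes rose and 2.25% fell. The median log2 change was 0.38. Of the 16, Ccn2, Postn, Tgfb1, Tgfbi and Thbs2 reached 10 normalized counts in at most 1 library of one label, and without these 5 the median was 0.05, with 1 gene higher and 1 lower. Fbln5, which encodes the elastic fibre protein fibulin-5, had 413.7, 455.5 and 446.2 normalized counts in knock-out libraries 1 to 3 and 98.7, 104.1 and 118.0 in wild-type libraries 1 to 3, 4.10-fold higher (limma adjusted p = 0.000792). Postn, which encodes the matricellular protein periostin, had 156.2 ± 38.9 in the knock-out label against 1.91 ± 0.724 in the wild-type label (adjusted p = 0.000337). Thbs2, a thrombospondin gene, had 45.1 ± 4.61 in the knock-out label against 4.90 ± 2.93 in the wild-type label (adjusted p = 0.00647). Spp1, which encodes osteopontin, a ligand of Itgav-containing receptors, had 29.0, 27.5 and 33.2 in knock-out libraries 1 to 3 and 78.7, 69.7 and 75.4 in wild-type libraries 1 to 3, 2.49-fold lower (adjusted p = 0.0101). Omitting wild-type library 3 (adjusted p = 0.0523) or knock-out library 1 (adjusted p = 0.0749) ended this call. Tgfb3, whose latent form is bound by Itgav-containing integrins, had 157.1 ± 8.06 normalized counts in the knock-out label against 98.7 ± 17.3 in the wild-type label and did not pass (adjusted p = 0.08). Without wild-type library 1 the count was 6 higher and 2 lower, where 12.1% of all genes rose and 9.02% fell.

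**Figure D5:**
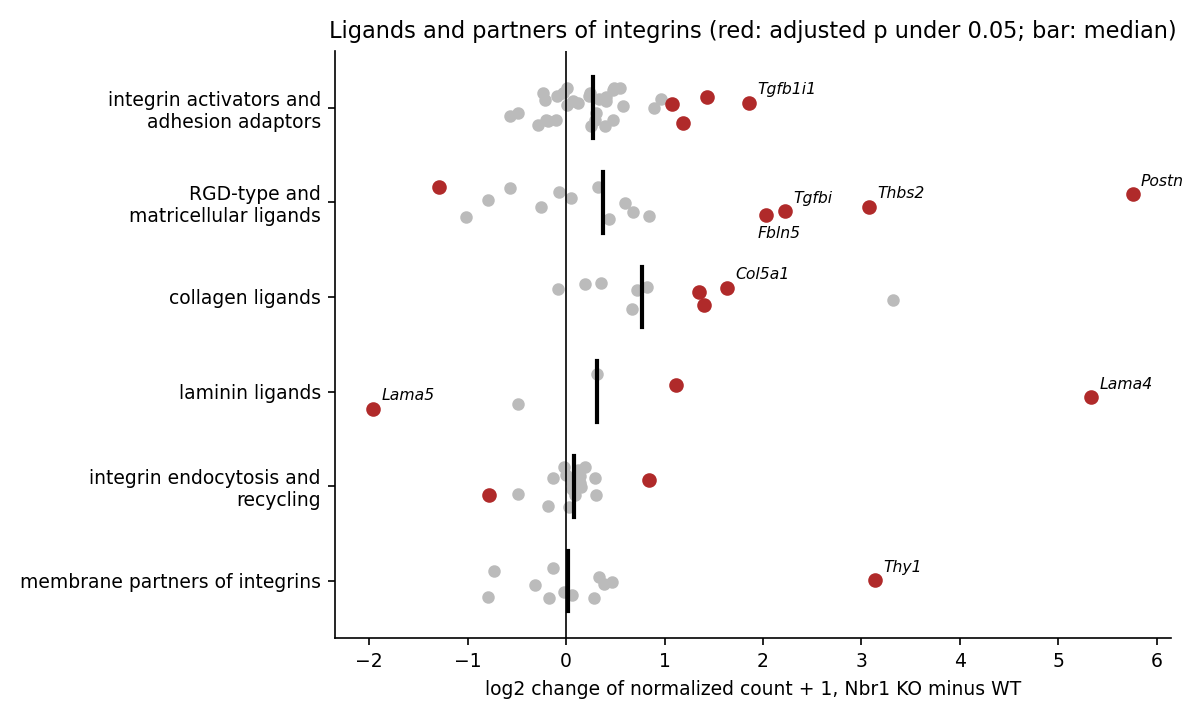
Log2 change (x axis, Nbr1 knock-out minus wild type) of each tested gene of 6 lists of integrin ligands, adaptors and partners, with a bar at each list's median. Red points passed at a limma adjusted p under 0.05; Lama4 and Postn lie above 5, Lama5 near -2, and the trafficking list centres near 0.

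Inside the cell, 4 of 34 tested activators and adhesion adaptors rose and 0 fell, with a median log2 change of 0.27. That is 11.8% higher, against 4.67% of all tested genes. At an unadjusted p under 0.05, reached by 22.6% of tested genes in either direction, 8 were higher and 2 lower (Nedd9 and Tns1). Both edgeR and DESeq2 called 0 lower. Tgfb1i1, which encodes the paxillin relative Hic-5, had 90.5, 89.4 and 102.0 normalized counts in knock-out libraries 1 to 3 and 18.7, 28.6 and 30.0 in wild-type libraries 1 to 3 (3.65-fold higher, limma adjusted p = 0.00647). Tln2, a talin gene, was 2.69-fold higher (102.5 ± 12.9 normalized counts in the knock-out label against 38.1 ± 10.2 in the wild-type label, adjusted p = 0.018). Lpp, a LIM protein gene of adhesion sites, was 2.28-fold higher (748.5 ± 124.6 normalized counts in the knock-out label against 327.7 ± 39.6 in the wild-type label, adjusted p = 0.0102). Apbb1ip, which encodes the Rap1 effector RIAM that recruits talin, was 2.13-fold higher (175.6 ± 25.3 normalized counts in the knock-out label against 82.6 ± 8.55 in the wild-type label, adjusted p = 0.0162). The list had 2 higher genes without wild-type library 2, 1 without knock-out library 1 and 0 without knock-out library 3, where 2.41%, 1.39% and 1.58% of all genes rose. All 4 calls were lost without knock-out library 3 (adjusted p from 0.051 to 0.1). Those of Tgfb1i1, Tln2 and Apbb1ip were also lost without knock-out library 1, those of Tln2 and Apbb1ip without wild-type library 2, and that of Tln2 when knock-out library 2 or wild-type library 3 was omitted. The main talin gene Tln1 had 1030, 716 and 1118 in knock-out libraries 1 to 3 and 1175, 542 and 553 in wild-type libraries 1 to 3, with wild-type library 1 the highest of all (adjusted p = 0.545). Without wild-type library 1 the count of this list was 9 higher and 2 lower, where 12.1% of all genes rose and 9.02% fell.

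Of 18 tested genes of integrin endocytosis and recycling, Arf6 rose and Snx27 fell, and the median log2 change was 0.08. This is 5.56% in each direction, near the 4.67% and 2.25% of all tested genes, and is no result about the list. Arf6, a small GTPase gene of membrane recycling, had 850.4 ± 65.0 normalized counts in the knock-out label against 473.1 ± 9.67 in the wild-type label (1.80-fold higher, limma adjusted p = 0.00947). Omitting knock-out library 1 or 3, or wild-type library 3, ended this call (adjusted p between 0.051 and 0.0802). Snx27, which encodes a sorting nexin of the recycling endosome, had 190.0 ± 5.61 in the knock-out label against 326.8 ± 7.04 in the wild-type label (1.72-fold lower, adjusted p = 0.0136). This call held without wild-type library 1 and missed the threshold when any other library was omitted (adjusted p between 0.0536 and 0.105). Of 12 tested membrane partners, Thy1, whose product binds Itgav-containing integrins, rose (31.8 ± 6.95 in the knock-out label against 2.80 ± 1.16 in the wild-type label, adjusted p = 0.00408) and 0 fell, with a median of 0.02. Thy1 was tested through its knock-out values, and without it the median was -0.02. At an unadjusted p under 0.05, reached by 22.6% of tested genes in either direction, 1 was higher and 2, Cav1 and Plaur, were lower. Both edgeR and DESeq2 called 0 lower. Thy1 is also a portal fibroblast marker. Cav1, the caveolin gene, had 262.5, 284.5 and 231.4 in knock-out libraries 1 to 3 and 282.8, 555.1 and 580.2 in wild-type libraries 1 to 3, and did not pass (adjusted p = 0.162). Without wild-type library 1, 2 of the membrane partners rose and 2 fell, where 12.1% of all genes rose and 9.02% fell.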

How the data were processed

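Messenger RNA of 6 libraries was measured with a 3′ tag kit from 200 ng of RNA, per the labels' protocols. The deposited values are a normalized count signal, each gene's reads divided by 1 factor per library by the authors. The submitters' processing notes name DESeq2 and GRCm39. The aligner, the annotation, and the use of strand and of molecular identifiers are not given in the sources used here. All values were whole multiples of 1 read (tolerance 0.01), so whole reads were recovered. The fewest reads of a row were 9. Replicates of a group differed beyond sampling noise (chi-square per degree of freedom 1.48 to 20.1), so none was counted as a copy.

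Groups were compared with limma 3.58.1 (R 4.3.3), two-sided and with a variance trend, on log2(value + 1), with the group as its only term and Benjamini-Hochberg adjustment over 10540 genes. Every adjusted p comes from it unless another fit is named. Folds are ratios of group means. The fit was also run on simulated counts with known changes, placed only in genes with a mean of at least 50. These counts held no library sets, so the run does not check the fit for genes like Itga1 or for the spread seen here. Integrin genes, lists, alternatives and the naming rule (every integrin subunit, and up to 6 genes per list by smallest p plus those needed for a count) were chosen with earlier results of these data known. Fn1, Tln1 and Col4a1 fall outside that rule and were named after their values were seen. Leaving out genes that reached 10 in few libraries of one label was chosen after seeing the data. The alpha share was planned over 7 genes, and 6 had a row.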

Additional observations from a re-analysis of the deposited data

How the results depend on the processing

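Under the alternatives run, 0 of the 6 tested integrin genes changed direction. The count of integrin genes that rose was 2, and 1 where a mean of at least 50 was required, since Itga1 was not tested there, and 3 with the term for library sets, which adds Itgb1. That term was read from the same values, so its calls are not independent support. It ranged from 0 to 2 with each library left out. The count that fell was 0. It was 2 with the term for library sets (Itgav and Itga3) and 1 in DESeq2 1.42.0 (Itgav), and ranged from 0 to 1 with each library left out. Other pseudocounts (0.5 and 5), no filter, TMM factors, quantile normalization, no variance trend and edgeR 4.0.16 left both counts as they were.

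Over all genes, 729 changed, 380 where a mean of at least 50 was required and 2791 with the term for library sets. With each library left out the count ranged from 200 to 2228, highest without wild-type library 1. With a term for the sets, 14.3% of all tested genes rose and 12.2% fell. The higher and lower counts there were 10 and 3 of 34 adaptors, 8 and 2 of 16 RGD-type ligands and 8 and 0 of 10 collagens. They were 2 and 1 of 5 laminins, 1 and 2 of 18 endocytosis and recycling genes and 2 and 1 of 12 membrane partners. Deviations of same-numbered libraries correlated at 0.446, 0.7 and -0.624, so the numbers were not taken to pair the samples. With the replicate block 476 genes changed, integrin calls stayed at 2 higher and 0 lower, and Snx27 missed the threshold (adjusted p = 0.0591). Depth limits Itga5, Itga11 and Itgb3, which had at most 15 reads in a group.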
